A study of Mus musculus with 3 samples.

Results

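Genes of the proteasome and of the enzymes that attach or remove ubiquitin were examined in cells of the ureteric tree and in the remaining cells of the embryonic mouse kidney. The genes were taken by their symbol on the array platform, namely the lettered proteasome families Psma to Psmg followed by a digit, names starting with Ube1, Ube2, Ube3 or Ube4, names starting with Usp and a digit, and names starting with Uch. Of 124 such genes on the platform, 62 had a value on all 3 arrays, 10 on 2 arrays, 7 on 1 array, and 45 had no value. These 62 are the genes described here, out of 3915 genes measured on all 3 arrays. Classed by symbol alone, they comprised 14 subunits of the core particle, 17 genes of the regulatory cap and 5 activator and assembly genes. The others were 17 conjugating enzyme genes (Ube2 symbols) and 9 deubiquitinating enzyme genes. None of the 4 genes with Ube3 or Ube4 symbols on the platform had a value on any array. Activating enzymes, and ligases under those symbols, are therefore not described from this set.

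Kidneys came from embryos at 15.5 days post coitum that carried HoxB7-GFP, a transgene in which Hoxb7 sequences drive green fluorescent protein in the ureteric tree, the branching epithelium that becomes the collecting ducts. Cells of both sexes together were sorted by fluorescence. Each array received amplified RNA of the GFP+ cells in channel 1 and of the GFP- cells in channel 2, and the labels state that the dyes were not swapped and that there was no common reference RNA. Both fractions carried the transgene, the GFP- fraction was a mixture of all kidney cells without fluorescence, and the labels do not say how many embryos or separate pools stood behind the arrays. A value is the log2 ratio of GFP+ over GFP- on 1 array, so that 1 unit is a 2-fold difference. That direction is likely and not settled: it rests on the order of the channels in the labels, which do not name the dyes. The cell type markers called below have the signs of that direction, but their lists were chosen with earlier results of these data known. A gene was called when limma's test of its mean ratio against 0 gave a Benjamini-Hochberg adjusted p below 0.05 over all 3915 genes. Errors are SDs over the 3 arrays, whose spread may be technical.

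Cells remove most of their short-lived and damaged proteins through this pathway. Ubiquitin is activated, passed to a conjugating enzyme and attached to the target with the help of a ligase. A tagged protein is then bound by the regulatory cap of the proteasome, unfolded by its ring of ATPases, freed of ubiquitin and cut inside a barrel of alpha and beta subunits. Deubiquitinating enzymes recycle ubiquitin or rescue targets. In cells exposed to interferon gamma, and in immune cells, the cutting subunits Psmb5, Psmb6 and Psmb7 are replaced by Psmb8, Psmb9 and Psmb10, and the PA28 activator of Psme1 and Psme2 can bind in place of a cap.

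The sorted fractions differed in their marker genes, whereas the proteasome and ubiquitin genes had means near 0. Of 6 measured ureteric epithelium markers out of 20 listed, 5 were called higher in GFP+ cells, and the median ratio was 2.05. Of 6 measured macrophage and leukocyte markers out of 16, 5 were called lower, with a median of -1.91 and means from -2.84 for Cd52 to -1.28 for Tyrobp. Stromal markers (4 of 5 called lower, median -1.61), cap mesenchyme markers (3 of 6, -1.19) and erythroid markers (2 of 3, -2.15) were lower as well. Among these, only the cap mesenchyme marker Osr1 had a positive mean, 0.17 ± 0.28, with -0.14, 0.41 and 0.25 on arrays 1, 2 and 3. None of 8 endothelial markers (median -0.30), 10 proliferation genes (-0.18) or the nerve marker Tubb3 (-0.18) was called by limma. At an unadjusted p below 0.05 by limma, 2 endothelial and 2 proliferation genes were lower, against 6.41% of all genes. Arrays 2 and 3 resembled each other (r = 0.883 across all genes), and array 1 stood apart from them (r = 0.0799 and 0.277). These correlations are across genes of the same arrays, and the array values are therefore given one by one below.

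None of the 62 genes was called in either direction by limma, where 1.38% of all genes were called higher and 1.4% lower. The smallest adjusted p among them was 0.182, and adjusted p reached 0.988. At an unadjusted p below 0.05 by limma, 5 were higher and 0 lower, against 8.45% and 6.41% of all genes. An ordinary one-sample statistic without shared variance gave 5 higher and 1 lower unadjusted, against 7.25% and 4.78% of all genes, and 0 after adjustment. The members' means ran from -0.61 to 0.62, none reached a 2-fold difference, and 60 of 62 lay within 0.5 of 0. Their median was -0.020, beside 0.034 for all genes, and the median absolute mean was 0.186, beside 0.198. The smallest mean called anywhere on these arrays was 0.89 in size, above the mean of every member. For 54 of the 62 genes the 95% interval of the mean from limma stayed within a 2-fold difference in both directions, and for 8 it did not.

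The spread between arrays was as large as the means. A gene had the same sign on all 3 arrays in 11 of 62 cases for higher ratios and in 6 for lower ones, while among all genes 20.7% were positive and 15.3% negative throughout. Arrays 2 and 3 shared a sign for 54 members, and array 1 had the opposite sign from both for 37 of these, or 59.7% of members, and for 1958 of 3915 genes overall. Across the 62 members, the correlation of array 1 with the average of the other arrays was r = -0.412, whereas across all genes r was 0.172, and arrays 2 and 3 had r = 0.853 across the members. These points share their libraries and are not independent.

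**Figure D1:**
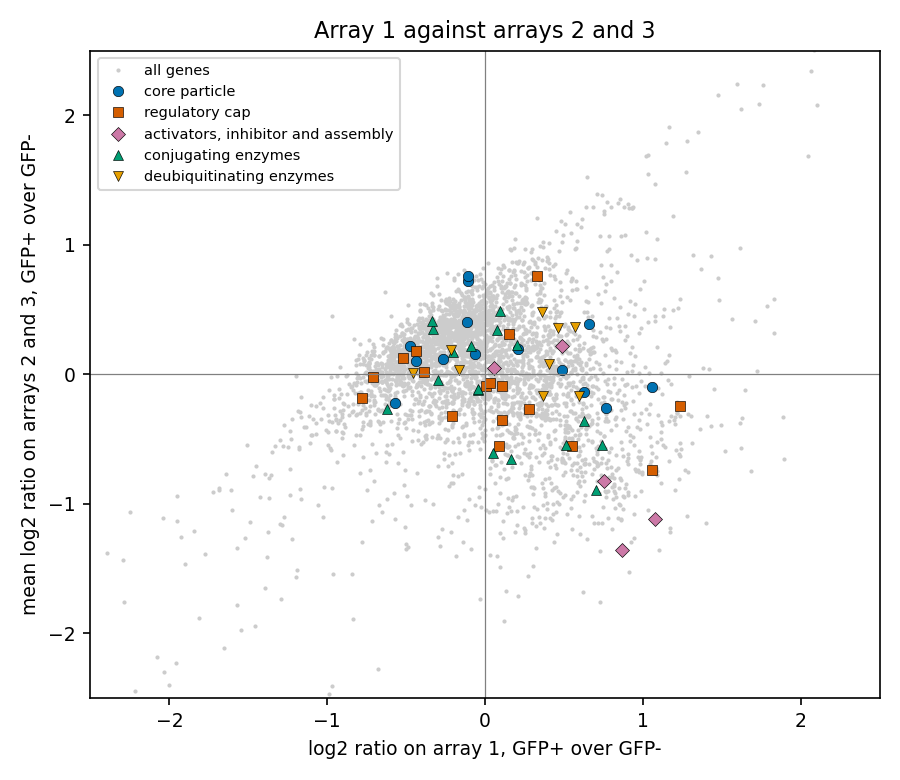
Log2 ratio on array 1 (x axis) against the mean log2 ratio on arrays 2 and 3 (y axis) for each gene; grey dots are all genes and coloured symbols are the members by class, and 14 genes lie beyond the axis limits of 2.5. Members spread from upper left to lower right (r = -0.412), with Psme1, Psme2b and Psmg4 at the lower right.

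Within the core particle, the barrel in which proteins are cut, 10 of 14 measured subunits had a positive mean and the median was 0.15. Among all 3915 genes, 54.9% had a positive mean. The median per array was -0.085, 0.14 and 0.15 on arrays 1, 2 and 3, so the sign on array 1 was opposite. The 7 beta subunits of the constitutive particle had a median mean of 0.23, with all 7 positive on arrays 2 and 3 and 2 of 7 positive on array 1. The 6 measured alpha subunits, which form the outer rings and the gate, had a median of 0.10. Their median was 0.56 on array 1, with 4 of 6 positive, and -0.12 and 0.11 on arrays 2 and 3, so its sign was opposite to that of the beta subunits on arrays 1 and 2 and the same on array 3. This grouping by ring was made after the values were seen.

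Psmb1, a beta subunit without cutting activity in mammals, had log2 ratios of 0.66, 0.22 and 0.56 on arrays 1, 2 and 3. All 3 were positive, and its mean was 0.48 ± 0.23 or 1.39-fold (95% interval 0.064 to 0.89, limma adjusted p = 0.272). Psmb5, which carries the chymotrypsin-like activity, had -0.11, 0.80 and 0.72, high on arrays 2 and 3 and slightly below 0 on array 1, with a mean of 0.47 ± 0.50 (adjusted p = 0.418). Psmb3, a structural beta subunit, had nearly the same profile, -0.11, 0.82 and 0.63, and a mean of 0.45 ± 0.49. The other catalytic subunits differed less between the fractions. Psmb6, with caspase-like activity, had 0.21, 0.22 and 0.17 and the narrowest spread of the core particle (0.20 ± 0.029), and Psmb7, with trypsin-like activity, had -0.063, 0.15 and 0.17 (0.084 ± 0.13). Psma5, an alpha subunit and the second lowest of the class, had -0.44, 0.084 and 0.12 (-0.077 ± 0.31), negative on array 1 alone. Psma2, another alpha subunit, had 1.06, -0.31 and 0.12, with signs opposite to those of Psma5 on arrays 1 and 2 and a like value on array 3.

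Psmb10, the inducible counterpart of Psmb7, was the lowest core subunit, with -0.57, -0.30 and -0.14 on arrays 1, 2 and 3. It was negative on all 3 arrays and alone in that among the 14, but it was not called (mean -0.34 ± 0.22, 95% interval -0.74 to 0.073, adjusted p = 0.431). Set against Psmb7 on the same array, the Psmb10 ratio differed by -0.51, -0.45 and -0.30, a mean difference of -0.42 ± 0.10. This pair was picked after its values were seen, and with 3 arrays a two-sided exact sign-flip test cannot give a p below 0.25, so it carries no test. Psmb8, the inducible counterpart of Psmb5, had no probe with values on all 3 arrays. Its better covered probe read -0.38 on array 1 and -0.64 on array 3, and its other probe read -1.70 on array 3 alone, so the probes had the same sign and differed in size. Every Psmb8 reading was below that of Psmb5 on the same array, with differences of -0.28 on array 1 and of -1.36 and -2.42 on array 3. Psmb9 had no value on any array. The 6 measured macrophage and leukocyte markers were negative on every array, with medians of -1.88, -1.93 and -1.95, and their part in the low ratios of Psmb10 and Psmb8 was not tested. In sorted populations, fewer cells of a type and less RNA per cell cannot be told apart.

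The sequences before the starts of Psmb5 and Psmb6, of the inducible Psmb10 and of the activator gene Psme1 are shown because the constitutive and inducible forms are set side by side here. Each is the 250 bases before the annotated start, read 5′ to 3′ on the gene's own strand, from RefSeq's table for GRCm38.p6. Psmb5 lies at chr14:54617996-54618245 on the minus strand, Psmb6 at chr11:70525107-70525356 on the plus strand, Psmb10 at chr8:105938393-105938642 on the minus strand and Psme1 at chr14:55578244-55578493 on the plus strand. Capitals mark matches to TGACNNNGC, the core of the antioxidant response element through which Nfe2l1 is known to act on proteasome genes, on either strand.
Psmb5: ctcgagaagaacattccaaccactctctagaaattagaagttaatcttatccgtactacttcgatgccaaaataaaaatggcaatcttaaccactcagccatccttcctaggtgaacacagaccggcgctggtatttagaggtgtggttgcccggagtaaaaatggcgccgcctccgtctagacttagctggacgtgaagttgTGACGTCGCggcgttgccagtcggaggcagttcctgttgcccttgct
Psmb6: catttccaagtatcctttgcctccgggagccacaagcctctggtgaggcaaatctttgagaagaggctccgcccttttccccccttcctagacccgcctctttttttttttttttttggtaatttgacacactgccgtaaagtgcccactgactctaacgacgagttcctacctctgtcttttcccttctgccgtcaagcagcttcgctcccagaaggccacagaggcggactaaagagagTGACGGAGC
Psmb10: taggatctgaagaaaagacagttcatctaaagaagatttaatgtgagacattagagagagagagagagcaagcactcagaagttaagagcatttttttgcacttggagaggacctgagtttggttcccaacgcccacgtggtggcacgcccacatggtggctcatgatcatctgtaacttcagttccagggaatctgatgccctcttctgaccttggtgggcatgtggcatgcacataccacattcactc
Psme1: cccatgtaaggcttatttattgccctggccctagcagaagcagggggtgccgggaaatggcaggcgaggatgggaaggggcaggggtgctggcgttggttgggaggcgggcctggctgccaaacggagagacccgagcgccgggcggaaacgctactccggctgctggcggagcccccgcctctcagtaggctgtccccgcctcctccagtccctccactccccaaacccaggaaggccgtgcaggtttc

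Psmb5 held 1 match, TGACGTCGC, starting 47 bases before the annotated start, and Psmb6 held 1, TGACGGAGC, starting 9 bases before it. No match lay in these windows of Psmb10 and Psme1. Of the 47 members with an entry in the table, 7 held the motif (14.9%), against 11.5% of all 27025 genes listed. Besides Psmb5 and Psmb6 they were Psmc6, Psmd12, Psmd9, Ube2j1 and Usp36, whose means lay between -0.20 and 0.26. The core of the interferon-stimulated response element, GAAANNGAAA, was searched on both strands in the same windows and was in 3 of the 47 (6.38%, against 3.46% of all genes), namely Psmb3, Psmd4 and Psmd9. The first motif begins with TGAC, which sites of the AP-1 and Creb factors share, and the window of Psmd9 held a match to each motif. A match in these letters is a description of the sequence and does not show binding.

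The regulatory cap leaned the other way from the core. Of its 17 genes 14 had a negative mean, beside 1767 of all 3915 genes, and the median was -0.090. The cap's median per array was 0.091, -0.083 and -0.14 on arrays 1, 2 and 3, so its sign also differed between array 1 and the others. The symbol rule takes in genes that are no cap subunits. These are the assembly chaperones Psmd5, Psmd9 and Psmd10, which leave before the cap is finished, and Psmc3ip, a factor of meiotic recombination. All 13 remaining structural subunits had a negative mean, from -0.38 to -0.025, with a median of -0.14. This split of the cap genes was made after the values were seen. Centring alone lowered every mean by the same amount, so it could not reduce the count of 13. The count also held with the arrays centred and scaled or quantile normalized. Leaving out array 1 made it 10 of 13, leaving out array 2 made it 9, and leaving out array 3 made it 12. On single arrays 6, 10 and 10 of the 13 were below 0.

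The ATPases of the cap, which unfold the target and feed it into the barrel, were the lowest group of the cap. All 5 measured had a negative mean, the median was -0.29, and medians of -0.21, -0.32 and -0.23 were found on arrays 1, 2 and 3. Psmc5 had -0.78, -0.17 and -0.19, lowest on array 1, with a mean of -0.38 ± 0.34 (95% interval -0.84 to 0.081, limma adjusted p = 0.43). Psmc3 had 0.091, -0.61 and -0.49, slightly positive on array 1 (-0.34 ± 0.38, adjusted p = 0.495). Psmc2 was negative throughout, -0.21, -0.32 and -0.32, with 1 of the smallest spreads of the set (-0.29 ± 0.066). Psmc6 followed Psmc3 in its signs, and Psmc1 had a negative value on array 1 only. The median of the constitutive beta subunits exceeded that of the ATPases by 0.10, 0.57 and 0.50 on arrays 1, 2 and 3. Both groups were set apart after the values were seen. By median they are the highest core group and the lowest cap group, so a positive difference was favoured by this choice and carries no test. For both alpha and beta rings without Psmb10 against the 13 cap subunits, the difference of medians was -0.095 on array 1 and 0.33 and 0.36 on arrays 2 and 3, so its direction was not shared by the arrays.

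The other 8 structural cap subunits lay nearer to 0, with a median of -0.10. Psmd4, a receptor for ubiquitin chains, had -0.39, -0.0072 and 0.048 (-0.12 ± 0.24). Psmd14, the protease that cuts ubiquitin off the bound target, had 0.031, -0.062 and -0.077 and the narrowest spread of the cap (-0.036 ± 0.059, 95% interval -0.41 to 0.33). Psmd14 thus lay near 0 on every array. Psmd8 had the widest spread of the cap, 1.06, -0.44 and -1.05, with more than a 2-fold excess in GFP+ cells on array 1 and in GFP- cells on array 3.

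Psmd10, also called gankyrin, a chaperone of the ATPase ring, had the highest mean of all 62 genes. Its ratios were 0.33, 0.76 and 0.76, positive on all 3 arrays, with a mean of 0.62 ± 0.25 or 1.53-fold (95% interval 0.20 to 1.03, limma unadjusted p = 0.0115, limma adjusted p = 0.182). Psmd9, another chaperone of the ATPases, was positive on every array too, at 0.15, 0.32 and 0.30 (0.26 ± 0.092, adjusted p = 0.507). Psmd5, which serves the same step, stayed near 0 at 0.0043, -0.051 and -0.14 (-0.061 ± 0.071). The chaperones Psmd9 and Psmd10 thus had positive means, while Psmd5 and all 5 measured ATPases had negative ones. This contrast was described after the values were seen and was not tested.

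**Figure D2:**
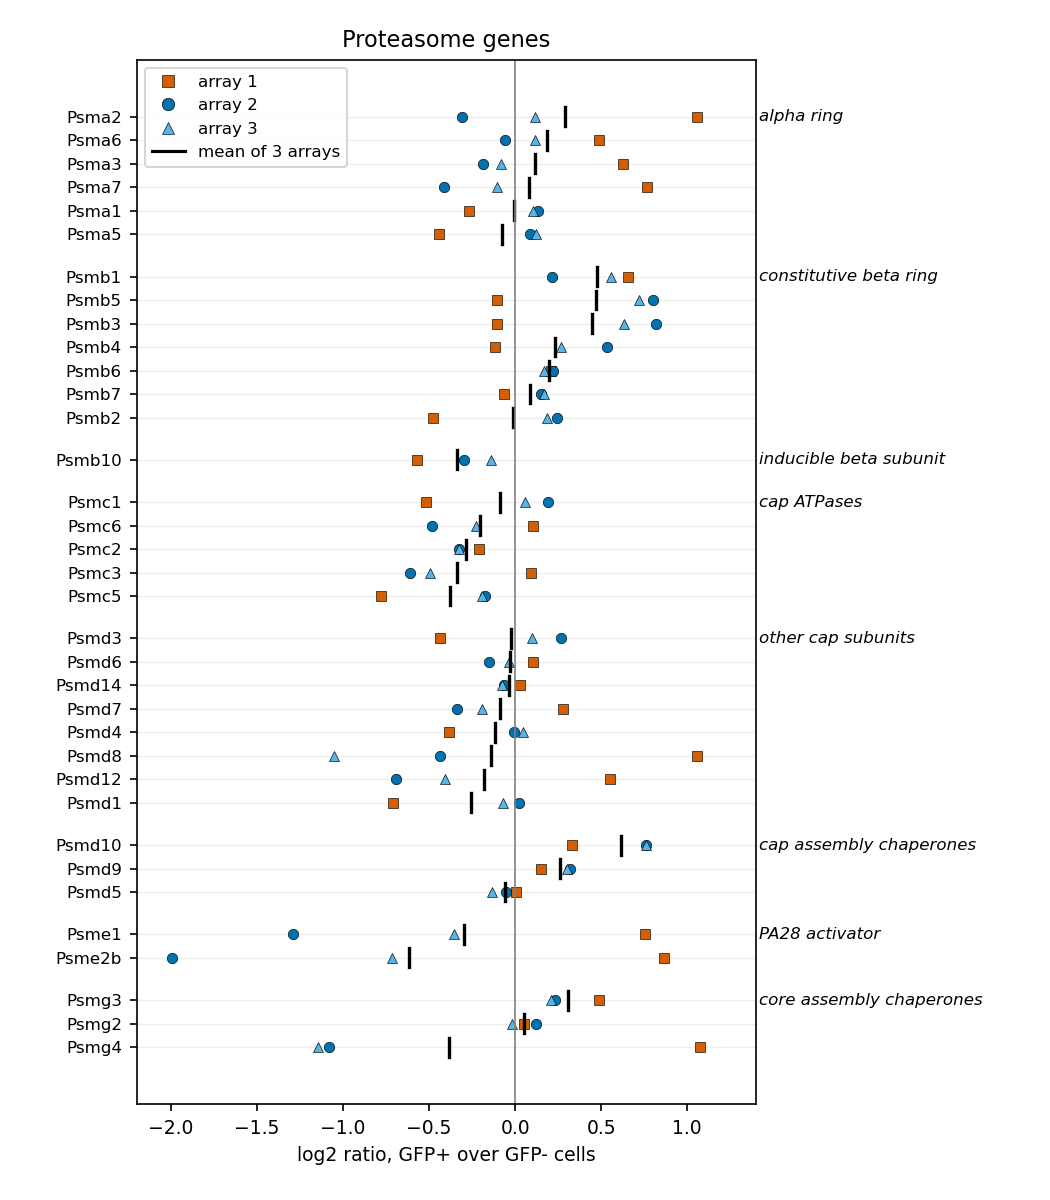
Log2 ratio of GFP+ over GFP- cells (x axis) for each proteasome gene (rows, grouped by role); squares, circles and triangles are arrays 1, 2 and 3, and the black tick is their mean. Constitutive beta subunits lie above 0 on arrays 2 and 3, the 5 ATPases have negative means, Psmd10 is highest, and Psme1, Psme2b and Psmg4 are positive on array 1 and negative on arrays 2 and 3.

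The probes for the PA28 activator and the assembly factor Psmg4 differed in sign between array 1 and the others, and Psme2b and Psmg4 had the widest spread of all 62 genes. Psme1, the alpha chain of PA28, had 0.75, -1.29 and -0.36 on arrays 1, 2 and 3, a mean of -0.30 ± 1.03 (adjusted p = 0.75). The probe annotated to Psme2b, a copy of the beta chain gene Psme2 so alike in sequence that the signal of both could be shared, had 0.87, -1.99 and -0.72 (-0.61 ± 1.43, adjusted p = 0.626). Both were positive on array 1 and negative on arrays 2 and 3, and the SD exceeded the mean for each. Psmg4, a chaperone of the alpha ring, had 1.08, -1.08 and -1.15 (-0.38 ± 1.27). Its partner Psmg3 was positive throughout at 0.49, 0.23 and 0.21 (0.31 ± 0.16), and Psmg2, of another chaperone pair, was near 0 at 0.054, 0.12 and -0.02 (0.051 ± 0.07). The inhibitor gene Psmf1 and the nuclear activator gene Psme3 had no values, and Psme4 had a value of -0.016 on array 3 only. The median of the 5 measured genes was 0.75 on array 1 and -1.08 and -0.36 on arrays 2 and 3. The median of their means was -0.30, and it was -0.82 without array 1, 0.076 without array 2 and -0.0029 without array 3.

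Conjugating enzymes, which carry activated ubiquitin to the ligase, were close to balanced. Of 17 genes, 7 had a positive mean and 10 a negative one, with a median of -0.091 and per-array medians of 0.052, -0.16 and -0.066. That median was 0.0018 without array 2 and 0.0086 when genes with values on at least 2 arrays were taken in. The highest was Ube2d3, an enzyme that works with many ligases, with 0.095, 0.63 and 0.34 (0.36 ± 0.27, limma adjusted p = 0.425). It was positive on every array. Its close relative Ube2d2a had 0.70, -1.09 and -0.70 (-0.36 ± 0.94), positive on array 1 and below -0.5 on the others. These proteins are nearly alike, and how far the probes tell their transcripts apart is unknown. Ube2b and Ube2a, the pair of Rad6 enzymes of DNA repair and histone ubiquitination, differed likewise. Ube2b was positive throughout (0.20, 0.12 and 0.33), whereas Ube2a had 0.51, -0.65 and -0.45. The difference between these relatives was 0.61, -1.72 and -1.04 for Ube2d2a minus Ube2d3 and 0.31, -0.77 and -0.78 for Ube2a minus Ube2b, so in each pair array 1 had the opposite sign. These pairs were chosen after their values were seen.

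At the low end, Ube2r2, a relative of the Cdc34 enzyme that serves cullin ligases, was negative on all 3 arrays with -0.62, -0.28 and -0.26 (-0.39 ± 0.21, 95% interval -0.79 to 0.018, limma adjusted p = 0.365). Ube2f, which conjugates the modifier Nedd8 to cullins and not ubiquitin, had 0.052, -0.89 and -0.32 (-0.39 ± 0.48), near 0 on array 1 and lowest on array 2. Ube2j2, anchored in the endoplasmic reticulum, had a similar mean (-0.38 ± 0.47) with 0.16 on array 1. Its relative Ube2j1 had -0.13 ± 0.17. Ube2l6, an interferon-induced enzyme of the modifier Isg15, was slightly negative throughout (-0.042, -0.22 and -0.022). Ube2v2, a variant without a catalytic cysteine that partners Ube2n in DNA damage tolerance, went from 0.74 on array 1 to -0.65 and -0.45.

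Ube2c supplies the anaphase-promoting complex and is a mitotic gene. It had -0.34, 0.47 and 0.35 (0.16 ± 0.44, adjusted p = 0.761), negative on array 1 and positive on the others. Measured beside it, 8 of 10 proliferation genes had a negative mean, as had 1767 of all 3915 genes. The proliferation genes had medians of -0.41, -0.025 and -0.049 on arrays 1, 2 and 3. Ube2cbp, a binding partner of Ube2c that the symbol rule takes in although it is no conjugating enzyme, had 0.076, 0.36 and 0.32 (0.25 ± 0.16). The remaining conjugating genes had means between -0.091 for Ube2e3 and 0.12 for Ube2k.

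Deubiquitinating enzymes had positive means in 7 of 9 cases, where 54.9% of all genes had one. Their median was 0.089, with per-array medians of 0.37, 0.065 and 0.081. The median was 0.038 with the arrays centred and 0.021 with them centred and scaled, and of the 8 Usp genes 6 were positive as deposited, 5 when centred and 4 when also scaled. The upper 3 were among the most even genes of the set. Usp15, which acts in TGF-beta signalling, had 0.36, 0.51 and 0.45 on arrays 1, 2 and 3, a mean of 0.44 ± 0.073 or 1.36-fold (95% interval 0.068 to 0.81, limma adjusted p = 0.266). Uchl3, which trims ubiquitin and Nedd8 precursors, had 0.57, 0.32 and 0.41 (0.43 ± 0.12, adjusted p = 0.278). Usp42 had 0.46, 0.45 and 0.27 on its fully covered probe (0.40 ± 0.11, adjusted p = 0.311), and its other probe read 0.25 and 0.077 on arrays 2 and 3. Each of these 3 genes was positive on every array, with an SD of at most 0.12.

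The lower members were Usp5, which takes apart free ubiquitin chains, and Usp39, a splicing protein that lacks a working active site. Usp5 had -0.46, -0.02 and 0.04 (-0.15 ± 0.27) and Usp39 had -0.16, 0.065 and 0.0043 (-0.031 ± 0.12), so both were below 0 mainly on array 1. Usp18, an interferon-induced protease of Isg15, had 0.37, -0.23 and -0.11 (0.009 ± 0.32). Usp4, Usp21 and Usp36 had means of 0.051, 0.089 and 0.19.

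**Figure D3:**
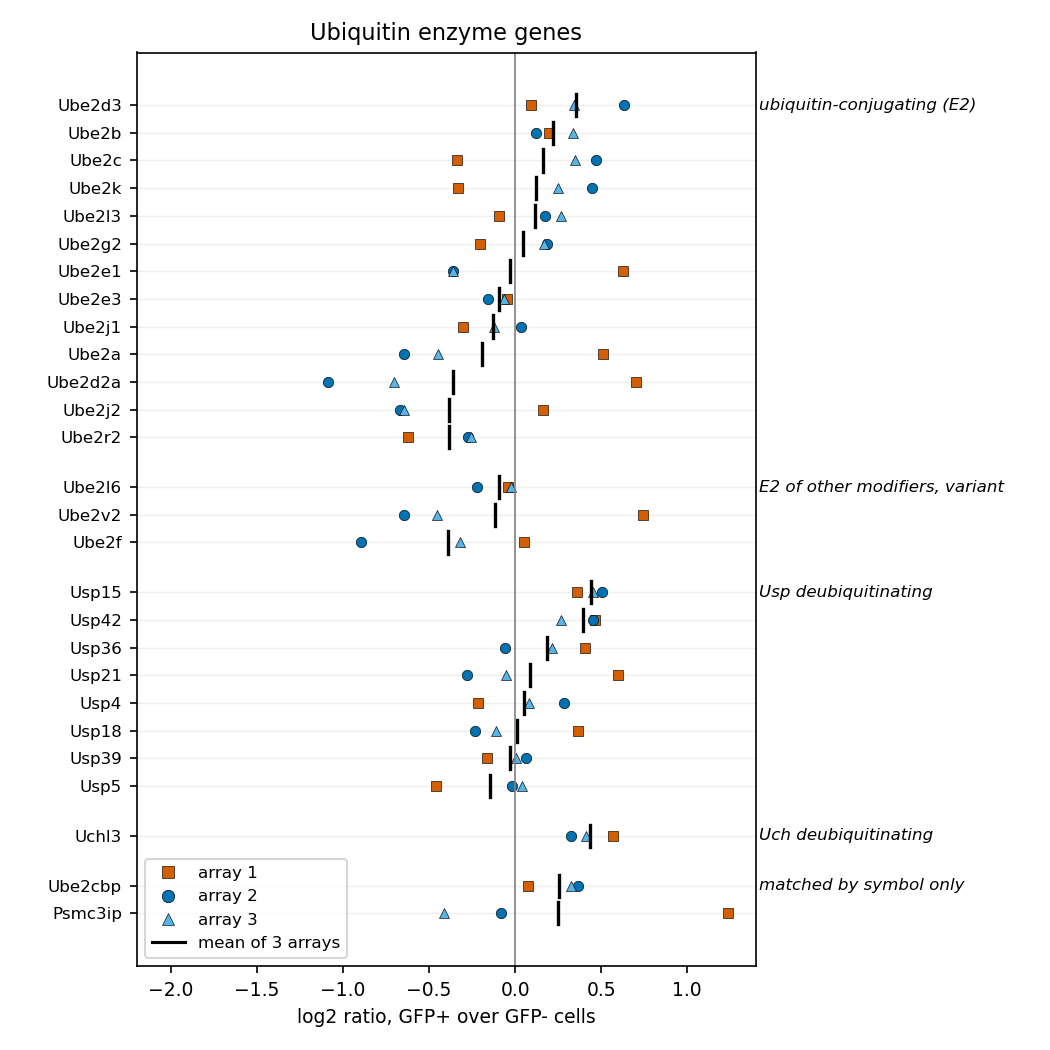
Log2 ratio of GFP+ over GFP- cells (x axis) for each conjugating and deubiquitinating enzyme gene and for the 2 genes matched by symbol only (rows); squares, circles and triangles are arrays 1, 2 and 3, and the black tick is their mean. Usp15, Uchl3 and Usp42 are positive on all 3 arrays, and Ube2d2a and Ube2v2 are positive on array 1 and negative on the others.

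Another 17 genes matched the rule with values on fewer than 3 arrays and were not tested. Uchl1, an abundant hydrolase of neurons that is also found in renal tubules, had 0.010 on array 1 and 0.66 on array 2, and Uchl5, a cap-bound deubiquitinating enzyme, had -0.015 and 0.66 on these arrays. Psma4 had -0.44 and 0.49 there, Ube2h -0.18 and 0.35, and Usp47 -0.66 and 0.40. These 5 genes were all higher on array 2 than on array 1. Ube2o had 0.48 and 0.60 on arrays 1 and 3, Ube2t 0.18 and 0.26 on arrays 2 and 3, Usp46 -0.25 and -0.36 on arrays 2 and 3, and Usp7 -0.40 and -0.035 on arrays 1 and 3. On array 3 alone, Usp10 had -0.57, Usp25 -0.48 and Usp8 -0.21, and Ube2v1, Usp43 and the pseudogene Ube2d-ps lay between 0.26 and 0.46. Among the 45 genes listed without a value were Psmb9, Psmc4, Psmd2, Psmd11, Usp9x, Usp14 and Ube3a. The rule that removed values before deposit is not stated, so a missing value says nothing of expression.

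**Figure D4:**
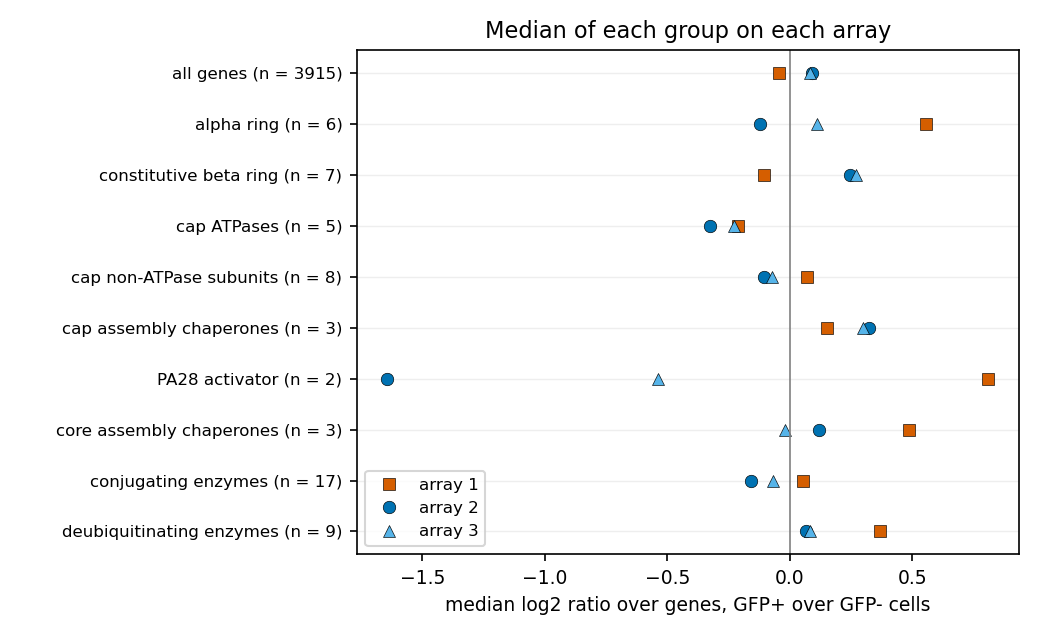
Median log2 ratio over the genes of each group (x axis) on arrays 1, 2 and 3 (squares, circles and triangles), with all genes in the top row and the number of genes in brackets. The ATPases lie below 0 on all 3 arrays (-0.21, -0.32 and -0.23) and the cap assembly chaperones above it, while the PA28 activator runs from 0.81 on array 1 to -1.64 on array 2.

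Leaving out array 1 turned many of these values into calls, as it did for genes at large. Without it, limma called 13 members higher and 14 lower, where 27.6% of all genes were higher and 18.9% lower. By group, 4 constitutive beta subunits (Psmb1, Psmb3, Psmb4 and Psmb5) were higher, and 5 cap subunits were lower, namely the ATPases Psmc2, Psmc3 and Psmc6 with Psmd8 and Psmd12. Psmd9, Psmd10, Uchl3, Usp15 and Usp42 were higher, and Psme1, Psme2b and Psmg4 were lower. Of the conjugating genes, 4 were higher, Ube2c among them, and 6 lower. For 18 of these 27 genes the sign on array 1 was opposite to the call. With weights that limma estimated for each array, which gave array 1 the lowest weight of the 3, 16 members were higher and 15 lower, against 33.4% and 22% of all genes, and the 27 were among them. Over both directions, the shares called lay near each other, at 43.5% of members and 46.4% of all genes without array 1, and at 50% and 55.4% with weights.

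Other genes of the pathway were taken from 9 lists, of which 69 genes were measured, and 0 were called by limma. At an unadjusted p below 0.05, limma had 2 of them higher and 2 lower, against 8.45% and 6.41% of all genes. The ordinary statistic had 1 and 3, against 7.25% and 4.78% of all genes. The median of the 69 genes was -0.063, with 26 positive and 43 negative means, beside 2148 and 1767 among all genes. The gene nearest to a call was Nfe2l1, a membrane-bound transcription factor that raises proteasome genes in mammals when the proteasome is short. It had -0.49, -1.01 and -0.87 on arrays 1, 2 and 3, negative on each, with a mean of -0.79 ± 0.27 (limma adjusted p = 0.0955). It was the lowest of the 4 measured members of its list of other proteasome factors (median -0.074), in which Nfe2l2, the related factor of the oxidative stress response, was highest at 0.0073 ± 0.71.

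Ubiquitin-like modifiers and ubiquitin genes (9 measured of 15, median 0.064) ran from Sumo2 at -0.14 ± 0.07 to Ubl4a at 0.35 ± 0.38. Enzymes of these modifiers (5 of 18, -0.062) ran from the Sumo activating subunit Sae1 at -0.74 ± 0.96 to the Sumo ligase Pias2 at 0.45 ± 0.40. Cullin ligases and the COP9 signalosome (15 of 30, -0.12) ran from the adaptor Skp1 at -0.40 ± 1.36 to the ring subunit Rbx1 at 0.31 ± 0.49. None of these members passed the threshold, and for Ubl4a, Sae1, Skp1 and Rbx1 the SD exceeded the size of the mean.

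The anaphase-promoting complex (5 of 14, median -0.084) ran from Cdc16 at -0.30 ± 0.43 to Anapc11 at 0.18 ± 0.30. Of 14 measured ligases of the HECT and RING families out of 40, 11 had a negative mean, beside 1767 of all 3915 genes. Their median was -0.15, and 4 of the 14 were negative on all 3 arrays, against 15.3% of all genes. The lowest was Nedd4, a ligase of membrane proteins, at -0.45 ± 0.29 (adjusted p = 0.332), and the highest Siah2, a hypoxia-linked ligase, at 0.40 ± 0.17 (0.320). Shuttle factors and partners of the segregase Vcp (8 of 20, -0.15) ran from Derl2 at -0.42 ± 0.70 to Faf1 at 0.15 ± 0.24, with 7 of 8 negative. On array 1, however, 5 of these 8 were positive, and only 1 was negative on all 3 arrays. Other deubiquitinating enzymes (8 of 22, 0.16) had 6 of 8 means positive and the Usp and Uch genes 7 of 9, beside 54.9% of all genes. Of these 8 other enzymes, 2 were positive on all 3 arrays, against 20.7% of all genes. They ran from Eif3h at -0.30 ± 0.12 to Brcc3, an enzyme of the DNA damage response, at 0.59 ± 0.10. Brcc3 was positive on each array (0.48, 0.64 and 0.66) and was not called (adjusted p = 0.146). Of 11 antigen presentation genes only Tapbp was measured (-0.053 ± 0.37), so the pathway that the inducible subunits serve could not be followed further.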

How the data were processed

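Sorted GFP+ and GFP- cells were compared on 3 arrays of 1 group, numbered 1 to 3. The deposited log2 ratios were made by the authors, per the labels' protocols, from spots quantified with Imagene 5.5, with a floor of 10 in the control channel and Lowess normalization over 20% of the points per local fit. Other values were removed before deposit by a rule not stated. Of 21819 gene features 70.1% had no value, and 4980 to 6187 features per array had one. The log base was read from the values, of which 99.97% were whole thousandths of a ratio in base 2 and 2.37% in base e.

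Probes with 1 gene symbol and values on all 3 arrays (3987) were averaged per gene and array, giving 3915 genes. Intensities are not used here, so signal over background is unknown. The mean ratio of every gene was tested against 0 by the moderated statistic of limma (version 3.58.1, R version 4.3.3). Its p-values were adjusted over all genes after Benjamini and Hochberg, and calls were made below 0.05. The fit was tested on simulated data. The labels name no separate pools, so p-values measure the spread between arrays only.

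Alternatives were centring, scaling, quantile normalization, values on at least 2 arrays, the median of probes, updated symbols, each array left out, arrays 2 and 3 averaged, array weights and an ordinary one-sample statistic. Named genes were the highest and lowest pair of each class and preset genes, with the extremes of each pathway list. Further members are named because all members follow from the symbol rule. The members and lists were chosen with earlier results of these data known.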

Additional observations from a re-analysis of the deposited data

How the results depend on the processing

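With each array left out in turn, the members called ranged from 0 to 13 for higher and from 0 to 14 for lower ratios, the upper values coming without array 1. Array weights gave 16 and 15, and no other setting gave a call. Over all genes, the calls were 1080 and 738 without array 1 and 1309 and 861 with weights, against 54 and 55 as deposited, 23 and 51 without array 3, 29 and 57 with arrays 2 and 3 averaged, 76 and 84 after quantile normalization, and 1 and 0 with the ordinary statistic. With an array left out, the median of the deubiquitinating genes ranged from 0.079 without array 1 to 0.27 without array 2. Centring with scaling gave 0.021. The other class medians moved by less than the SD of the array medians. That SD comes from the same 3 arrays, so leaving 1 out can hardly exceed it, and stability does not follow. For the activator and assembly genes it was 0.93, and their median of -0.30 became -0.82 without array 1 and 0.076 without array 2. The conjugating median of -0.091 became 0.0018 without array 2. Among single genes, leaving out an array gave means from -0.18 to 0.10 for Psma5, -0.20 to 0.021 for Psmd4, -0.82 to 0.20 for Psme1, -1.35 to 0.076 for Psme2b, -0.079 to 0.035 for Usp39 and -0.24 to 0.0098 for Usp5. The positive ends came without array 1, or without array 2 for Psme1 and Psme2b. Weights turned Psma5 to 0.10, Psmd4 to 0.023, Usp39 to 0.016 and Usp5 to 0.012, and centring with scaling turned Psmg2 to -0.011. The cause of these changes was not tested. Leaving out the chaperones and Psmc3ip (cap median -0.14), and Ube2cbp (conjugating median -0.093), was chosen after seeing the data. The 3 arrays limit the precision, and without swapped dyes, as the labels state, an effect of the dyes on a gene cannot be told apart from a difference between the cells.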
